A study of Strigamia maritima with 9 samples.

Results

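Among the stretches of native centipede DNA called as bound by the domain CopiaMBD1, 1653 regions also carried a peak of exactly 1 of the other 2 domains, CopiaMBD2 or CopiaMBD3. They made up 23.2% of the 7124 regions with a CopiaMBD1 peak and 7.80% (exact 95% interval 7.44 to 8.16%) of all 21205 native regions. The regions were selected on the authors' own peak calls: peaks of the 3 native libraries that overlapped by at least 1 bp were merged, and a region was kept when its peaks came from CopiaMBD1 and 1 other domain. CopiaMBD1 and CopiaMBD2 shared 875 of them, and CopiaMBD1 and CopiaMBD3 shared 778. These sets are called the CopiaMBD2-paired and the CopiaMBD3-paired set, the domain that joins CopiaMBD1 is called the partner, and the third is the missing domain. Of all native regions, 33.6% had a CopiaMBD1 peak and 26.9% had peaks of exactly 2 domains. As the peak calls chose the regions, these counts, and the folds and q-values of the native peaks given below, are a description.

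A methyl-CpG binding domain (MBD) is a small protein fold that in several vertebrate proteins grips DNA at CG dinucleotides whose cytosines are methylated on both strands. Copia elements are retrotransposons, which spread by copying their RNA back into DNA. In some animals such elements encode an MBD of their own. CG methylation in invertebrates is often patchy, so the methylated fraction of the genome offers such a domain a limited set of places to bind.

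The study mapped 3 such domains on genomic DNA of *Strigamia maritima*, a coastal centipede, by DNA affinity purification sequencing (DAP-seq), in which a protein made outside the cell binds naked genomic fragments. Adult DNA of the strain behind the genome sequence was sheared to about 200 bp and given to an in-vitro translated domain carrying a HaloTag, a protein tag that holds it on beads, and the captured DNA went through 20 cycles of PCR. The native groups, 1 for each domain, used this DNA as isolated, and their control was the HaloTag without a domain. The amplified groups, again 1 for each domain with a HaloTag-only control, used DNA copied over 11 PCR cycles before binding, which by design leaves the methyl groups behind. A MethylC-seq sample is not analysed here.

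Every group held 1 library, so no comparison has a replicate check and no test was made. The native lists held 7461, 14001 and 15714 peaks of CopiaMBD1, CopiaMBD2 and CopiaMBD3, from 2044955 to 2239324 tags at unique positions per domain and a control of 4050757. Intervals are exact binomial for shares and from order statistics for medians. They cover counting error only, since regions are not replicates, and reads copied by PCR and not tagged with molecular identifiers do not count molecules one by one. The 3 native calls used the same HaloTag-only library, so a chance low of the control at a position enters all 3. The domains act here as isolated proteins on naked DNA, without chromatin.

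CopiaMBD2 and CopiaMBD3 joined CopiaMBD1 about equally often when the other was missing. A CopiaMBD2 peak was present in 48.9% (46.5 to 51.2%) of the 1790 CopiaMBD1 regions without CopiaMBD3, and a CopiaMBD3 peak in 46.0% (43.6 to 48.4%) of the 1693 CopiaMBD1 regions without CopiaMBD2. Both shares were well under those beside the third domain: CopiaMBD2 was called in 85.4% of the 5334 CopiaMBD1 regions with CopiaMBD3, and CopiaMBD3 in 83.9% of the 5431 with CopiaMBD2. Regions with CopiaMBD1 and a single partner were thus a minority beside the 4556 regions with all 3 domains, and each set was close in number to the 915 regions with CopiaMBD1 alone. Seen from the longer lists the sets were small, 6.47% of the 13519 regions with CopiaMBD2 and 5.06% of the 15384 with CopiaMBD3. In regions without CopiaMBD1, CopiaMBD2 and CopiaMBD3 shared 4057. These were 40.4% (39.4 to 41.3%) of the 10050 regions with CopiaMBD3 and 50.2% (49.1 to 51.3%) of the 8088 with CopiaMBD2. The shared regions are the same in both, so the order of these shares only follows how many regions each domain has there. They are not the counterpart of the 48.9% and 46.0% above.

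The CopiaMBD2-paired set held 52.9% (50.5 to 55.4%) of the 1653 regions, and the order of the sets was not stable. The whole difference lay on the contigs of the assembly, whose names begin with AFFK, where the sets counted 362 and 247 regions. On the scaffolds, whose names begin with JH, they counted 513 and 531, a ratio of CopiaMBD3-paired to CopiaMBD2-paired regions of 1.03 against 0.889 overall. The ratio also passed 1 when a minimum −log10 q of 5 (1.18) or 10 (1.19) was set, and on sequences with peaks to 100 kb or beyond (1.19). It was lower, at 0.796, with equally long lists.

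Both sets were scarcest where the CopiaMBD1 call was most confident. When the CopiaMBD1 regions were ranked by their −log10 q, the peak caller's measure of confidence, and cut into 4 groups of similar size, the CopiaMBD2-paired share went from 15.5% in the weakest group over 13.1% and 12.04% to 8.79% in the strongest. The CopiaMBD3-paired share was 13.9, 14.8, 10.4 and 4.64% in the same order, so it was highest in the second group. Regions with CopiaMBD1 alone went from 21.9% to 3.04%, and regions with all 3 domains from 48.8% to 83.5%. In the strongest group, with −log10 q from 8.18 to 85.2, 159 of 1809 regions had CopiaMBD2 as the single partner (7.53 to 10.2%) and 84 had CopiaMBD3 (3.72 to 5.72%).

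**Figure D1:**
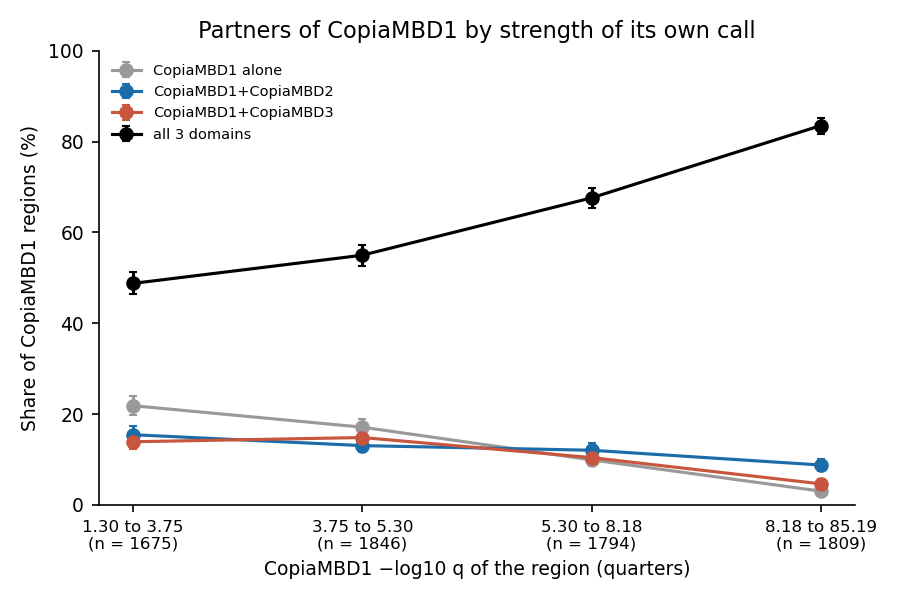
Share of CopiaMBD1 regions (y axis, %) with each domain makeup, in 4 groups of CopiaMBD1 regions ordered by CopiaMBD1 −log10 q (x axis, weakest to strongest). The CopiaMBD2-paired share goes from 15.5 to 8.79% and the CopiaMBD3-paired share from 13.9 to 4.64%, while regions with all 3 domains go from 48.8 to 83.5%.

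Fold enrichment, the authors' ratio of domain coverage to the local HaloTag-only level, was alike for CopiaMBD1 in the 2 sets. The median CopiaMBD1 fold was 4.18 in both, with intervals of 4.09 to 4.27 in the CopiaMBD2-paired and 4.15 to 4.23 in the CopiaMBD3-paired set. The central 50% of regions lay between 3.48 and 4.98 and between 3.48 and 4.88. This was between the medians of regions with CopiaMBD1 alone (4.02, 3.98 to 4.18) and with all 3 domains (4.53, 4.51 to 4.58). The interval of CopiaMBD1 alone overlapped those of both sets, and that of all 3 domains lay above them. The ranges ran from 1.99 to 11.6 and from 1.99 to 13.2.

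Each partner was likewise weaker in these sets than where all 3 domains were called. Within its own list, CopiaMBD2 had a median fold of 4.55 (4.37 to 4.65) in the CopiaMBD2-paired set, against 5.58 in regions with all 3 domains, 4.65 beside CopiaMBD3 only and 4.19 alone. CopiaMBD3 had a median fold of 5.12 (4.98 to 5.29) in the CopiaMBD3-paired set, against 6.64 with all 3, 5.32 beside CopiaMBD2 only and 4.73 alone. For both partners the pairing with CopiaMBD1 therefore stood in the same place, above the domain alone and well below all 3. Folds of different domains come from separately called lists, and are set side by side here without comparing their sizes.

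**Figure D2:**
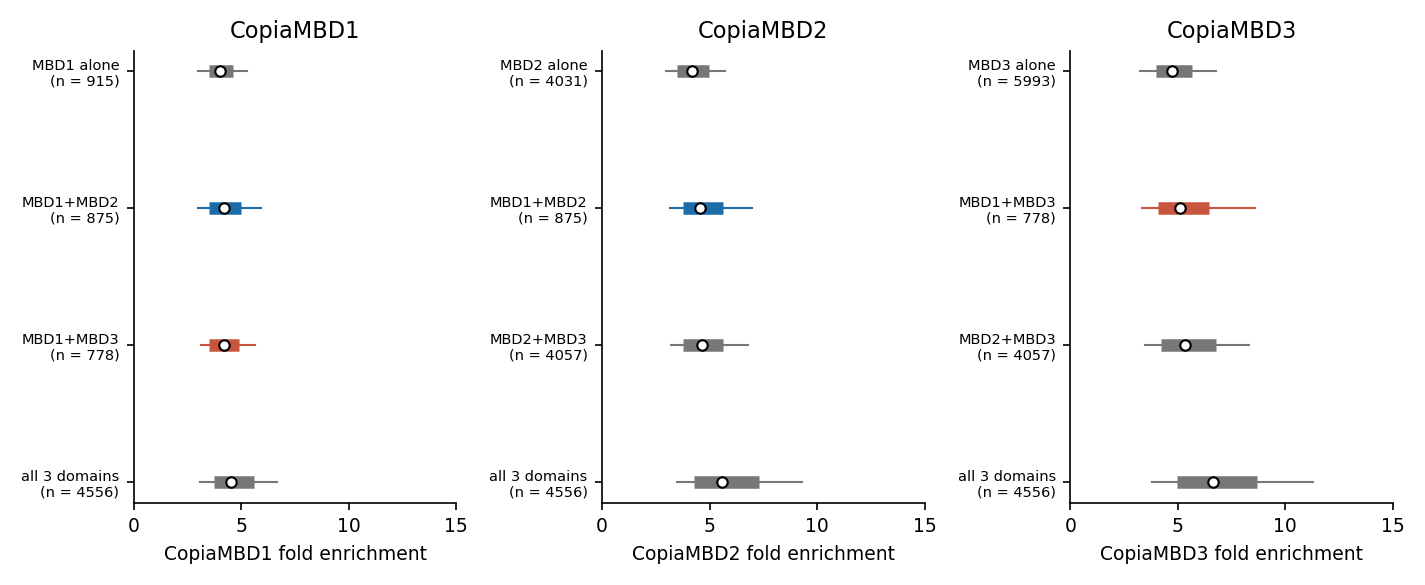
Fold enrichment over the HaloTag-only control (x axis) of each domain in regions of each makeup. Dots mark medians, thick bars the central 50% of regions and thin lines the 10th to 90th percentile. Medians of CopiaMBD1 are 4.18 in both sets, against 4.53 in regions with all 3 domains, and CopiaMBD2 (4.55) and CopiaMBD3 (5.12) also lie below their medians there (5.58 and 6.64).

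Confident CopiaMBD1 peaks were more common in the CopiaMBD2-paired set. A CopiaMBD1 −log10 q of at least 10 was reached in 93 of 875 regions (10.6%, 8.66 to 12.9%) and in 42 of 778 (5.40%, 3.92 to 7.23%), against 23.5% of regions with all 3 domains and 2.95% of regions with CopiaMBD1 alone. The shares with a CopiaMBD1 fold of at least 5 lay closer together, at 23.8% (21.0 to 26.7%) and 20.4% (17.7 to 23.4%), with overlapping intervals. At equal fold, −log10 q is larger where more reads are present, and the control level was higher in the CopiaMBD2-paired set: it reached at least 3 times its lowest value at the CopiaMBD1 summit in 14.7% (12.5 to 17.3%) against 7.20% (5.48 to 9.25%) of regions. The part of the control level in the −log10 q difference was not tested. On scaffolds the shares at −log10 q of at least 10 were 6.63% (4.63 to 9.14%) and 4.52% (2.92 to 6.65%), with overlapping intervals, and on contigs they were 16.3% (12.6 to 20.5%) and 7.29% (4.38 to 11.3%).

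A minority of members had high folds of both domains. Both folds were at least 5 in 110 CopiaMBD2-paired regions (12.6%) and 109 CopiaMBD3-paired regions (14.0%), and at least 8 in 6 and 2. The joint share in regions of other makeup is not given here, so a low share is not read as particular to the sets. For scale, the CopiaMBD1 fold was at least 5 in 35.0% of regions with all 3 domains and 13.9% of regions with CopiaMBD1 alone. Ranked by the lower of its 2 folds, the strongest member lay in the CopiaMBD3-paired set on AFFK01010340 (723 to 973). There CopiaMBD1 had a fold of 13.2 with −log10 q 31.0 and 37 fragments over the summit, and CopiaMBD3 a fold of 23.4 with −log10 q 68.4 and 61 fragments. The 2 summits fell on the same base, neither list held a peak over a lower control level, and no CopiaMBD2 peak was called anywhere on the contig. At that control level the weakest CopiaMBD2 peak called elsewhere had a fold of 2.86.

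In the CopiaMBD2-paired set the strongest member by its lower fold lay on AFFK01002860 (49 to 407), with a CopiaMBD1 fold of 9.75 (−log10 q 19.0, 27 fragments) and a CopiaMBD2 fold of 11.8 (−log10 q 25.9, 32 fragments). Its summits were 1 bp apart, its control level too was the lowest of each list, and no CopiaMBD3 peak was called on the contig. The next 4 were AFFK01009919 (221 to 445), JH430821 (1233 to 1474), AFFK01014178 (2 to 638) and AFFK01000571 (465 to 673). Their CopiaMBD1 folds were 9.71, 11.5, 10.3 and 11.6 and their CopiaMBD2 folds 9.21, 9.21, 8.71 and 8.59. Of these 5 regions 4 lay on contigs, and 3 of the 4 contigs had no CopiaMBD3 peak. CopiaMBD3 was called 344 bp from the region on AFFK01009919 and 5321 bp from that on JH430821.

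In the CopiaMBD3-paired set the next 4 all lay on scaffolds: JH431124 (6394 to 6627), JH429865 (7733 to 7924), JH430511 (7820 to 8004) and JH431630 (141727 to 141930). Their CopiaMBD1 folds were 8.01, 7.76, 7.64 and 7.36 and their CopiaMBD3 folds 8.18, 8.85, 12.5 and 8.04. Each of these scaffolds also carried CopiaMBD2, at 194, 356, 912 and 1799 bp from the region. The first 3 of these gaps were below the median for the set, 1288 bp, and the last was above it.

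A high CopiaMBD1 fold could go with a weak partner. On JH431349 (13232 to 13768) CopiaMBD1 had a fold of 11.1 and CopiaMBD2 of 3.98, with summits 70 bp apart and no CopiaMBD3 on the scaffold. On JH430238 (2551 to 2767) CopiaMBD1 had a fold of 8.98 and CopiaMBD3 of 3.19. In both, the control at the CopiaMBD1 summit was at or next to the lowest in its list, whereas at the partner's summit it was 2.24 and 2.44 times the lowest. The opposite case was JH431975 (247434 to 247654), where a CopiaMBD1 peak close to the calling threshold (fold 2.27, −log10 q 1.41) overlapped a CopiaMBD3 peak of fold 8.76 and −log10 q 17.5.

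Across members the folds of the 2 domains were only loosely related. Spearman's rho between them was 0.271 over 875 regions and 0.291 over 778, below the 0.395 and 0.359 for the same pairs of domains in regions with all 3. The order did not hold throughout for CopiaMBD3. On scaffolds its rho was 0.305 in the set against 0.272 with all 3, and on contigs 0.259 against 0.455. For CopiaMBD2 it was 0.195 against 0.312 on scaffolds and 0.364 against 0.486 on contigs. Where the control was at its lowest in both lists, rho was 0.275 over 110 and 0.424 over 115 regions, against 0.494 and 0.436 with all 3. These correlations are across regions of single libraries that share a control, and are given as a description.

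**Figure D3:**
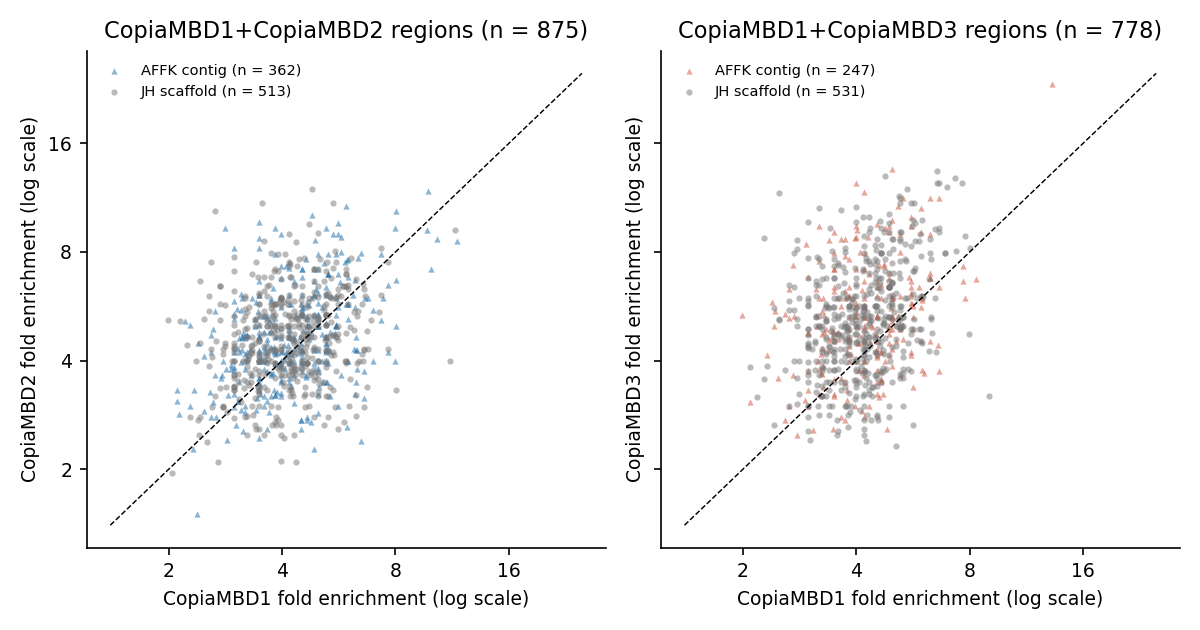
Partner fold against CopiaMBD1 fold (both log axes) for each member, with CopiaMBD2 and CopiaMBD3 as partner, triangles for contigs, circles for scaffolds and a dashed line of equal folds. The clouds are broad (Spearman's rho 0.271 and 0.291), and the isolated point at 13.2 and 23.4 is the region on AFFK01010340.

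The rule joined peaks that overlap, so the paired peaks lay on the same stretch of DNA by selection. A merged region spans all its peaks, so its length depends on how many were joined. In 868 of 875 and 767 of 778 regions a single CopiaMBD1 peak met a single partner peak, and the merged regions were short, with a median length of 235 and 242 bp against 355 bp for all 3 domains and 165 bp for CopiaMBD1 alone. The summits were a median of 29 bp (26 to 32) and 30.5 bp (27 to 34) apart, and within 50 bp in 68.6% and 68.3% of regions. The overlap covered a median of 97.2% and 97.4% of the narrower peak, and 1 peak lay wholly inside the other in 41.3% and 42.7%. The intervals of the summit distance overlapped between the sets, and the median summit distances were shorter than the sheared fragments. Summit distances and overlaps in regions of other makeup are not given here, so these values only compare the sets with each other.

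At the edge of the rule, peaks barely touched. The smallest overlaps were 4 bp on JH431882 (1361 to 1776) between a CopiaMBD1 peak of fold 2.42 and a CopiaMBD2 peak of fold 6.64, and 3 bp on AFFK01014524 (11458 to 11779) between a CopiaMBD1 peak of fold 4.53 and a CopiaMBD3 peak of fold 3.77. The overlap was under 50% of the narrower peak in 46 and 43 regions. Just outside, the third domain touched a region by at most 10 bp in 5 of the 4556 regions with all 3 domains, in 4 of them as CopiaMBD3 and in 1 as CopiaMBD2. On JH429927 (5758 to 6301), 1 bp shared with a CopiaMBD3 peak of fold 3.64 kept a region out of the CopiaMBD2-paired set.

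The weakest members stood at the calling threshold. The lowest CopiaMBD1 −log10 q was 1.30 in both sets, on AFFK01014949 (21672 to 21972) with fold 2.32 and on AFFK01016347 (11665 to 12059) with fold 2.43. It was under 2 in 24 and 25 regions, and that of the partner in 20 and 15. Just past the rule on domains, some regions with all 3 held their place with a peak of −log10 q under 2. This peak was of CopiaMBD2 in 35 (0.768%) and of CopiaMBD3 in 19 (0.417%) of the 4556. In 94 (2.06%) it was of CopiaMBD1, without which a region belongs to neither set. A missing domain means that no peak was called, not that no binding took place. At control levels within 5% of that at each member's CopiaMBD1 summit, the weakest peak in the missing domain's list had a median fold of 2.80 for CopiaMBD3 (1.52 to 3.08 over members) and 2.66 for CopiaMBD2 (1.62 to 3.20), so weaker binding than this could not be seen. A call also needs a minimum width, so these folds are not exact bounds.

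Over all sequences, the missing domain was called within 1 kb of the sets at shares near those of other regions without it. On sequences that carried it at all, the nearest CopiaMBD3 peak was a median of 904 bp (754 to 1046, 685 regions) from a CopiaMBD2-paired region, and the nearest CopiaMBD2 peak 1288 bp (1084 to 1489, 660 regions) from a CopiaMBD3-paired one. The missing domain was called within 1 kb of 41.1% (37.9 to 44.5%) of CopiaMBD2-paired and 37.1% (33.7 to 40.6%) of CopiaMBD3-paired regions. CopiaMBD3 has the longer list, so each share is best read against other regions without the same domain. CopiaMBD3 was within 1 kb of 38.7% of regions with CopiaMBD2 alone and 36.5% of those with CopiaMBD1 alone. CopiaMBD2 was within 1 kb of 35.4% of regions with CopiaMBD3 alone and 34.6% of those with CopiaMBD1 alone. Of these 4 levels, only the 36.5% lay outside the interval of the set it is compared with, and just below it.

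On scaffolds alone the CopiaMBD2-paired share was 46.0% (41.6 to 50.4%), against 39.5% for CopiaMBD2 alone and 36.7% for CopiaMBD1 alone, both outside its interval. On contigs it was the lowest of the 3, 34.3% (29.4 to 39.4%) against 37.0% and 36.1%, both inside its interval. The CopiaMBD3-paired share was 38.0% (33.9 to 42.3%) on scaffolds, against 36.5% for CopiaMBD3 alone and 33.8% for CopiaMBD1 alone. Of these, the latter lay just below its interval. On contigs it was 35.2% (29.3 to 41.5%), against 32.9% and 36.5%, both inside its interval. At the closest, CopiaMBD3 was called 2 bp from a CopiaMBD2-paired region on AFFK01018615 (10704 to 10946), and CopiaMBD2 2 bp from a CopiaMBD3-paired region on JH431516 (89928 to 90156). Within 100 bp there were 37 regions in each set, 4.23% (2.99 to 5.78%) and 4.76% (3.37 to 6.50%). For CopiaMBD3 the levels were 5.36% beside CopiaMBD2 alone and 4.81% beside CopiaMBD1 alone. For CopiaMBD2 they were 3.91% beside CopiaMBD3 alone and 4.15% beside CopiaMBD1 alone. All of these levels lay inside the interval of the set they are compared with. In 190 CopiaMBD2-paired regions (21.7%) and 118 CopiaMBD3-paired regions (15.2%) the missing domain had no peak on the whole sequence. Of these, 25 and 21 lay on scaffolds and the others on contigs. The share on sequences without the domain is not given here for regions of other makeup, so 21.7% and 15.2% are not read as a trait of the sets.

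**Figure D4:**
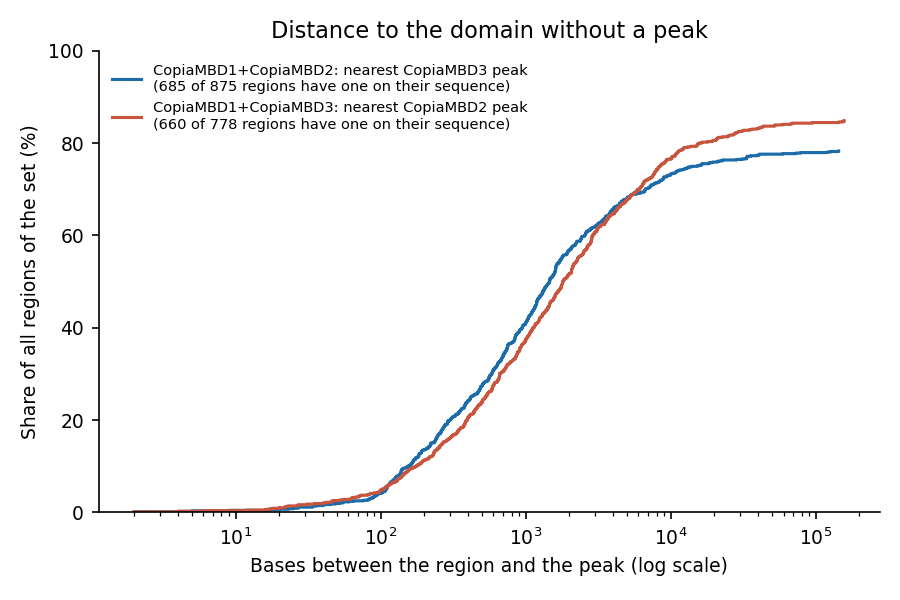
Cumulative share of regions (y axis, %) whose nearest peak of the missing domain lies within a given distance (x axis, bp, log scale), for the 2 sets. At 1 kb the curves stand at 41.1% for the CopiaMBD2-paired and 37.1% for the CopiaMBD3-paired set, and end below 100% because some sequences carry no peak of the missing domain.

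The sets also differed in where they lay on the assembly. Contigs held 41.4% (38.1 to 44.7%) of the CopiaMBD2-paired and 31.7% (28.5 to 35.1%) of the CopiaMBD3-paired regions, against 35.4% of all native regions. The former was close to the 42.9% of regions with all 3 domains and the latter to the 31.1% of regions with CopiaMBD1 alone. The last native region ended at a median of 1.26 kb on the 336 contigs with a CopiaMBD2-paired region (central 50% from 0.780 to 10.2 kb) and at 3.88 kb on the 228 with a CopiaMBD3-paired one (0.894 to 12.4 kb), so the ranges largely overlapped. On scaffolds these medians were 35.2 and 39.8 kb. This end is a lower bound on the length of a sequence, which was not measured.

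The HaloTag-only control moved with this difference. On contigs it was at least 3 times its lowest level at the CopiaMBD1 summit in 21.0% of CopiaMBD2-paired and 11.3% of CopiaMBD3-paired regions, and on scaffolds in 10.3% and 5.27%. When peaks at such levels were left out of all lists, contigs held 36.7% (33.7 to 39.7%) of CopiaMBD2-paired and 31.7% (28.5 to 35.1%) of CopiaMBD3-paired regions, a smaller difference with overlapping intervals, and the ratio of the sets was 0.771. The contig share was higher in the CopiaMBD2-paired set in 6 of the 7 settings that could give it. The exception was sequences with peaks to 100 kb or beyond, where contigs held 0.610% and 1.54%. The part of the control level in the difference between the sets was not tested.

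**Figure D5:**
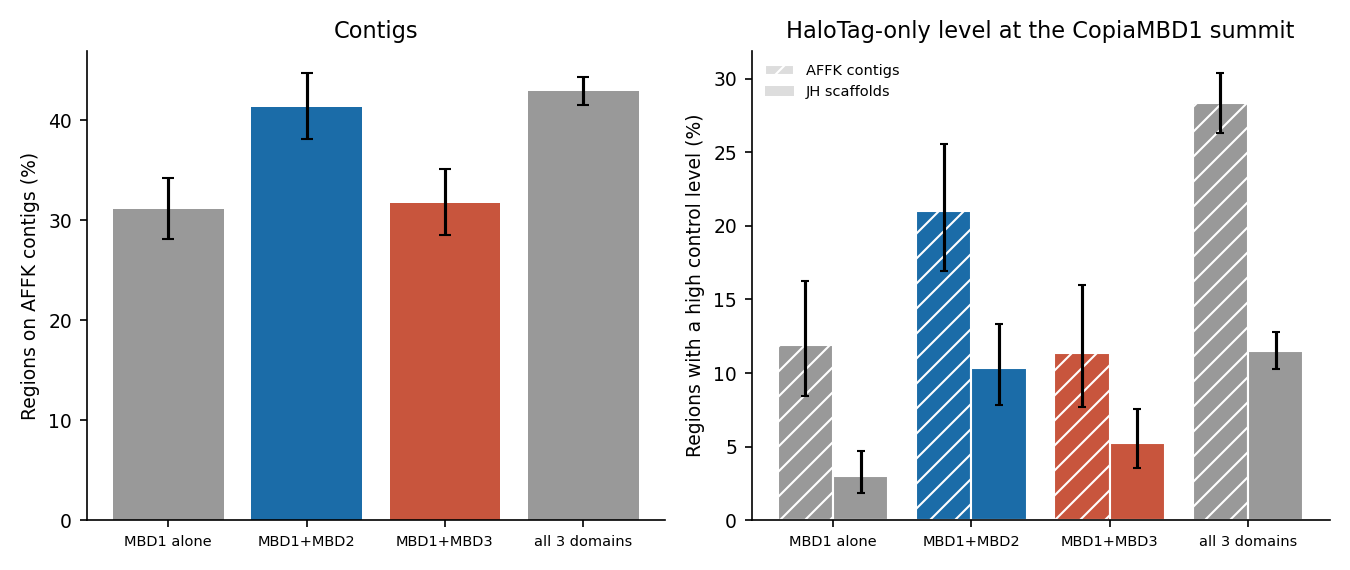
Left, share of regions on contigs (%) by domain makeup; right, share of regions (%) whose control level at the CopiaMBD1 summit was at least 3 times the lowest, on contigs (hatched) and scaffolds (plain). Error bars are exact 95% intervals. The CopiaMBD2-paired set is above the CopiaMBD3-paired set in each: 41.4 against 31.7% on contigs, and 21.0 against 11.3% and 10.3 against 5.27% at a raised control level.

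Members of a set were scattered. The CopiaMBD2-paired regions lay on 729 sequences, 620 of which held 1, and the CopiaMBD3-paired regions on 625, 514 of which held 1. Both sets occurred on 181 sequences. The nearest other native region was a median of 557 bp (485 to 639) and 668 bp (593 to 750) away, around the 602 bp of all regions. This neighbour had CopiaMBD3 alone in 26.8% and 30.8% of cases against 28.3% over all regions, and all 3 domains in 20.7% and 20.2% against 20.8%. For CopiaMBD2-paired regions the following shares had intervals that left out the value over all regions. The neighbour was of the same set in 5.93% (4.33 to 7.91%) against 3.96%, and had CopiaMBD1 alone in 6.3% (4.7 to 8.4%) against 4.6%. It held CopiaMBD1 in 37.0% (33.4 to 40.6%) against 33.0%, and CopiaMBD3 in 68.4% (64.9 to 71.8%) against 72.4%. For CopiaMBD3-paired regions the neighbour was of the same set in 4.48% against 3.63%. It held CopiaMBD1 in 34.2% (30.7 to 37.9%) and CopiaMBD3 in 72.5% (69.1 to 75.8%). It held CopiaMBD2 in 59.4% (55.6 to 63.1%) against 63.5%, which lay outside the interval.

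Some sequences held several members. JH431530, with 21 native regions up to base 40642, held 5 CopiaMBD2-paired regions and no CopiaMBD3-paired one. They began at 22550, 23668, 26271, 30087 and 34167, with CopiaMBD1 folds of 6.50, 3.58, 4.22, 4.98 and 2.79 and CopiaMBD2 folds of 4.18, 4.40, 4.59, 3.55 and 4.18. The nearest CopiaMBD3 peaks lay 503 to 6772 bp away, around the set's median of 904 bp and up to well above it. JH431094, with 33 regions, held 4 CopiaMBD3-paired regions and no CopiaMBD2-paired one, beginning at 176414, 182402, 195568 and 316466. There CopiaMBD3 folds were 2.82, 4.94, 5.67 and 7.07, and the last region was 69187 bp from the nearest CopiaMBD2 peak.

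The scaffold with the most members, JH431789, mixed the sets, with 5 CopiaMBD2-paired and 10 CopiaMBD3-paired among 186 regions. Close together on it lay a CopiaMBD3-paired region (270723 to 271077, CopiaMBD1 fold 5.91, CopiaMBD3 fold 8.97) and a CopiaMBD2-paired one (272774 to 272971, CopiaMBD1 fold 6.72, CopiaMBD2 fold 4.83). JH432211 carried 4 and 7 members among 186 regions, and JH432114 5 and 1 among 67. In all, 27 CopiaMBD2-paired regions had a CopiaMBD3-paired region within 1 kb, the nearest at 156 bp. Which genes or repeats lie at these places is not analysed here.

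Once the DNA had been copied by PCR before binding, nearly none of these regions was called again. An amplified-DNA peak of any domain overlapped 8 of 875 CopiaMBD2-paired regions (0.914%, 0.396 to 1.79%) and 5 of 778 CopiaMBD3-paired regions (0.643%, 0.209 to 1.49%). Over all native regions the share was 0.566%, which lies inside both intervals, and it was 1.23% in regions with all 3 domains. As called, the shares of both sets were therefore near the background. At a minimum −log10 q of 10 they were 3.73% (1.22 to 8.49%) of 134 CopiaMBD2-paired and 1.26% (0.153 to 4.47%) of 159 CopiaMBD3-paired regions. At a minimum of 5 they were 0.893% (0.244 to 2.27%) and 1.51% (0.654 to 2.95%). The share over all native regions at these minimums is not given here, so these values are not set against a background.

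In the CopiaMBD2-paired set, 5 of the 8 overlaps were with CopiaMBD3, the domain without a native peak there. Of the others, 3 were with CopiaMBD1 and none with CopiaMBD2. The amplified-DNA lists held 358, 133 and 169 peaks of CopiaMBD1, CopiaMBD2 and CopiaMBD3. Shares per amplified domain over all native regions are not given here. These counts are therefore not read as a trait of the set. A count of 0 of 875 allows a share of up to 0.343% by a limit of 3 counts, and of up to 0.421% by the exact interval. All 5 CopiaMBD3 overlaps lay on contigs: AFFK01005736 (448 to 854), AFFK01006524 (492 to 666), AFFK01006661 (456 to 614), AFFK01011064 (931 to 1151) and AFFK01019071 (1203 to 1396). The amplified-DNA CopiaMBD3 folds there were 3.77, 4.71, 3.98, 4.13 and 4.49, with summits 13 to 60 bp from the native CopiaMBD1 summit. The native CopiaMBD1 folds were 4.71, 3.98, 4.04, 6.25 and 5.87. At AFFK01006661 the native control level was 8.61 times the lowest of the CopiaMBD1 list, and at AFFK01011064 3.23 times. At the other 3 it was 1.17, 1.61 and 1.01 times the lowest, and the part of the control in the missing native call was not tested.

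The 3 CopiaMBD1 overlaps were on scaffolds JH431388 (112194 to 112419), JH431593 (103714 to 104002) and JH431879 (516 to 801), with amplified-DNA folds of 3.17, 2.57 and 4.58. The native CopiaMBD1 folds at these regions were 2.79, 2.39 and 3.78, and the native and amplified summits were 15, 17 and 160 bp apart. Amplified and native folds come from separate calls with different controls.

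In the CopiaMBD3-paired set all 5 overlaps lay on scaffolds. CopiaMBD3 itself was called on amplified DNA at JH430276 (5499 to 5996, fold 2.43) and JH430605 (4431 to 4751, fold 4.19), CopiaMBD1 at JH431092 (28241 to 28644, fold 4.35), CopiaMBD2 at JH430457 (1076 to 1319, fold 5.14), and both CopiaMBD1 (2.24) and CopiaMBD2 (2.60) at JH430333 (1546 to 1837). CopiaMBD2, the missing domain, thus accounted for 2 of the 5 regions. The summits at JH430276 and JH431092 lay 297 and 302 bp from the native CopiaMBD1 summit, further than the mean fragment length of 200 bp, and the other 3 regions had summits within 97 bp. With 13 regions in all, no difference between the sets in the amplified domain can be read.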

How the data were processed

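The authors mapped each library of 3 domains on native and on amplified DNA and called peaks per library, with no pooled replicates, using as control the HaloTag-only library made from the same kind of DNA. Per the file headers this was done with MACS2 2.1.0.20150731 at a q-value cutoff of 0.05, 1 tag per position, the larger library sampled down to the smaller, an effective genome size of 174 Mb and local control windows of 1 and 10 kb. Of the other tools that the submitters' processing notes list, BS-Seeker2, Bowtie, Bowtie2, fastp and CASAVA 1.8.2, no role is stated. Positions are 1-based as deposited. The genome build was not given in any source used here.

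Pileup, as deposited, is a coverage signal that counts fragments at the summit. Fold enrichment, as deposited, is a ratio the authors took of pileup to local control. The deposited −log10 p and −log10 q are the peak caller's values for the summit, and −log10 p was not used for any result.

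Groups came from the sample titles, with 1 library per group. Native peaks were merged at an overlap of at least 1 bp (Python 3.11.15, numpy 2.4.6, pandas 2.3.3), shares were given exact Clopper-Pearson 95% intervals (scipy 1.17.1), and matplotlib 3.10.9 drew the plots. In a region with several peaks of a domain, the peak of highest fold gave the values, and the pair of peaks with the largest overlap gave the distances. The control level was recovered as (pileup + 1) / fold − 1 and given relative to the lowest of its list. The merging was tested on simulated data. Amplified-DNA calls used 3488873 to 3772201 unique tags and a control of 3685424. The named regions are, per set, those with the 5 highest lower folds, the 3 highest CopiaMBD1 folds, the 3 lowest CopiaMBD1 −log10 q, the 3 smallest gaps to the missing domain, the 3 smallest overlaps and any with an amplified-DNA peak. Of these, the report gives the ones that show each pattern. Sequences named for several members are the 3 with the most of each set. The members, lists and alternatives were chosen with earlier results of these data known. The alternatives were other −log10 q minimums, equally long lists, other joining rules, long sequences, low control levels and, added after seeing these files, scaffolds alone.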

Additional observations from a re-analysis of the deposited data

How the results depend on the processing

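Of 118 values recomputed under 8 settings, 58 stayed inside their interval or, for counts, within 1.5 times. The other 60 follow with the CopiaMBD2-paired value before the CopiaMBD3-paired one. The cause of these changes was not tested, beyond the smaller number of peaks or sequences that a stricter setting keeps. At −log10 q of at least 10 there were 134 and 159 regions (ratio 1.19, against 0.889), median CopiaMBD1 folds of 6.05 and 6.64, partner folds of 5.97 and 7.22, contig shares of 53.7 and 39.6%, shares with the missing domain within 1 kb of 14.2 and 14.5%, and summit distances of 11 and 21 bp, and 3.73% of CopiaMBD2-paired regions overlapped an amplified-DNA peak. At −log10 q of at least 5 the CopiaMBD2-paired set had 448 regions (ratio 1.18) and a contig share of 47.5%, CopiaMBD1 folds were 4.98 and 4.98, partner folds 5.37 and 6.05, shares near the missing domain 37.3 and 30.4%, summit distances 18 and 26.5 bp, and 1.51% of CopiaMBD3-paired regions overlapped an amplified-DNA peak. With 50 bp on each side of the summits, partner folds were 4.72 and 5.48, shares near the missing domain 58.5 and 56.3%, and the CopiaMBD3-paired summit distance 26 bp. On scaffolds alone the CopiaMBD2-paired set had 513 regions (ratio 1.03), 46.0% near the missing domain. With control levels under 3 times the lowest, the ratio was 0.771, CopiaMBD1 folds 4.37 and 4.27, partner folds 4.91 and 5.48, and the CopiaMBD2-paired contig share and summit distance 36.7% and 32.5 bp. With equally long lists the ratio was 0.796, CopiaMBD1 folds 4.32 and 4.31, partner folds 5.64 and 6.97, and shares near the missing domain 26.4 and 25.9%. With peaks up to 200 bp apart joined, the last shares were 31.9 and 28.6%. On sequences with peaks to 100 kb or beyond there were 164 and 195 regions (ratio 1.19) with contig shares of 0.610 and 1.54%. There the CopiaMBD2-paired set had folds of 3.98 (CopiaMBD1) and 4.36 (partner) and 49.4% near the missing domain, and the CopiaMBD3-paired set a summit distance of 39 bp and 0% overlap with amplified-DNA peaks. More CopiaMBD3-paired than CopiaMBD2-paired regions were counted in 4 of 8 settings. With 1 library per domain, no value carries an error between libraries, and the depth of 2044955 to 2239324 tags per native library limits which weak peaks could be called. No paired analysis was possible because each group has 1 library and no test was made.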
